A study of Mus musculus with 6 samples.

Results

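The ribosome of the cytoplasm is built from a large and a small subunit, and the genes described here encode its proteins, named *Rpl* for the large and *Rps* for the small subunit. They were chosen by gene name alone, as the names on the array made of RPL or RPS and a number, with a short suffix where there was one, together with *Rplp0*, *Rplp1*, *Rplp2* and *Rpsa*. This rule found 68 genes with 101 probes, of 30774 gene names and 45281 probes on the array. Of the 68 genes, 39 belonged to the large subunit and 29 to the small subunit. Several of the genes are near relatives of another one, such as *Rpl7l1*, *Rpl22l1*, *Rpl36al*, *Rpl39l*, *Rpl3l* and *Rps27l*. No probe was listed as *Rplp0*, *Rpl5* or *Rpl11*.

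RNA was measured on 6 Illumina arrays of mouse embryonic stem (ES) cells of strain 129/SvEv, grown without feeder cells. All cells lacked *Dicer1*, and with it mature miRNAs, and carried Ago2-myc, a tagged form of the protein that holds miRNAs, in place of the endogenous one. In triplicate, cells received 300 pmol of miR-294, a miRNA of the ES cell cluster miR-290-295, or of cel-239b, a *C. elegans* miRNA used as the control, with 1 µg of pEGFP-1, and GFP-positive cells were sorted after 24 hr. The deletion, the tagged Ago2, the plasmid and the sort were thus shared by both groups, and signal was detected for *Dicer1* on all 6 arrays by both of its probes. The mature miR-294 is shown because it was the only agent that differed from the control. RefSeq places it at chr7:3220691-3220712 on the plus strand of GRCm38.p6, and the capitals mark its seed, bases 2 to 8.
mmu-miR-294-3p: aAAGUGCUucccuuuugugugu

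Ribosomal proteins are made in matching amounts, assembled on ribosomal RNA in the nucleolus, and needed in large numbers by fast-dividing cells such as ES cells. Their mRNAs begin with a run of pyrimidines, the 5′ terminal oligopyrimidine (TOP) tract, through which the mTOR pathway controls their translation. Many of their mRNAs are among the most abundant of a cell, and the genome holds many processed copies of them, so that probes for these genes can also bind RNA of such copies.

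All values below are log2 of the background-corrected, quantile-normalised signal, and a log fold change is miR-294 minus cel-239b on that scale. Of the 101 probes, 84 probes for 62 genes were detected with a score above 0.99 on at least 3 arrays and were tested with limma among 14621 such probes, with *p*-values adjusted over all of them by the Benjamini-Hochberg method. The 17 other probes were not tested. *Rpl17*, *Rpl3l*, *Rpl6*, *Rps18*, *Rps20* and *Rps23* had no tested probe. Just inside the detection rule lay a probe of *Rpsa* (5490554), detected on 3 arrays, and probes of *Rpl14* (1400482) and *Rps27a* (5550431), each detected on 4. Just outside lay a probe of *Rpl4* (5290079), detected on 2 arrays, and that of *Rpl3l* (1850100), detected on 1. With 3 arrays against 3 an exact permutation test of a single probe cannot give a *p*-value below 0.10, and precision is limited by that number of arrays.

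Most ribosomal protein probes gave similar signals with miR-294 and cel-239b, but 44 of the 84 had a signal of 14 or above, near the top of the scale, where few probes of any kind passed the test. Of the 84 probes, 11 probes for 9 genes were upregulated and 0 were downregulated, where a probe passed the test with an adjusted *p*-value below 0.05. One of the 11, *Rps27a* probe 5550431, met the detection rule through its 3 miR-294 arrays, and 10 of 81 probes rose when detection on all 6 arrays was required. In all, 13.1% of the ribosomal protein probes passed the test, against 32.3% of all tested probes, of which 16% rose and 16.3% fell. At an unadjusted *p*-value below 0.05, limma gave 16 ribosomal protein probes that were higher and 1 that was lower, against 22.7% and 21.6% of all tested probes. None had a *B*-statistic, the log odds of a change, above 5, against 1.47% of all tested probes. The median log fold change was 0.03, with quartiles of -0.03 and 0.10, against a median of 0.01 over all tested probes. Without miR-294 replicate 2 the median was 0.01, with 43 of 83 probes above 0. Without its sign, the median change was 0.05, against 0.17 over all tested probes. RNA came from whole sorted populations, in which a change in the share of some cells and a change in the RNA of each cell cannot be told apart. The probes ran from -0.17 for *Rps3a* to 0.79 for a probe of *Rps27a*, with 54 above 0 and 30 below.

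Each subunit had probes that rose and none that fell at an adjusted *p*-value below 0.05, and the difference between the subunits was not tested. Of 49 probes of the large subunit, 7 rose (14.3%), and the median log fold change of the 49 was 0.03. Of 35 probes of the small subunit, 4 rose (11.4%), with a median of 0.01, against 16% of all tested probes that rose. Among the 4 was *Rps27a* probe 5550431, which met the detection rule through the miR-294 arrays. For 47 of the 73 probes that did not pass the test, the 95% interval of the log fold change lay wholly within 0.2 of 0, which was the case for 1640 of the 9900 probes that did not pass among all tested probes. Of the 47, 38 had a signal of 14 or above, a band in which the interval was as narrow for 101 of 135 other probes that did not pass.

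**Figure D1:**
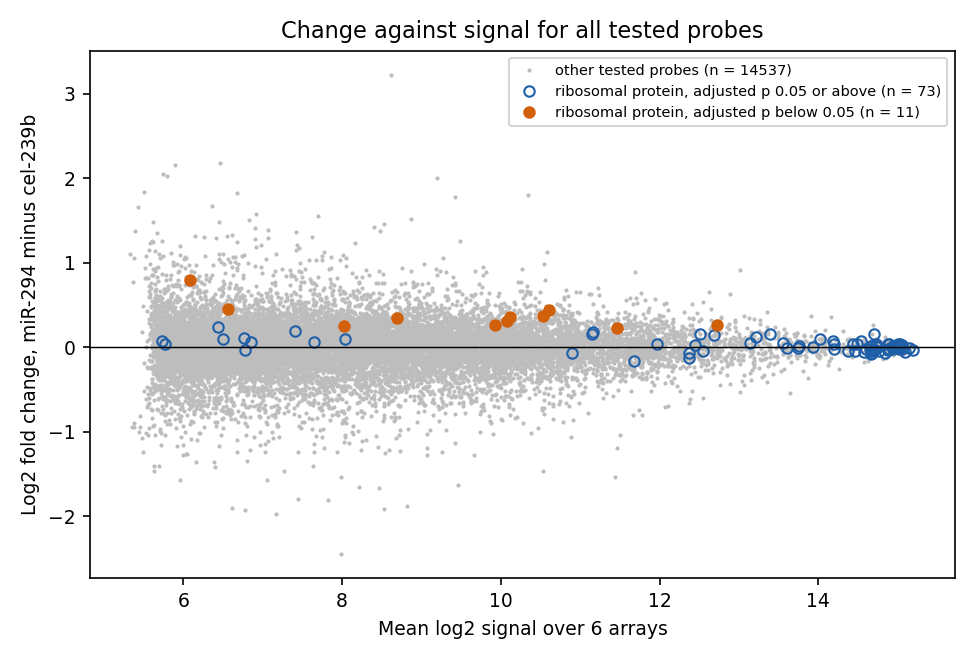
The log2 fold change of each tested probe (miR-294 minus cel-239b, vertical axis) is plotted against its mean log2 signal over the 6 arrays (horizontal axis), with ribosomal protein probes as circles and all others as grey points. The 11 filled circles, at an adjusted p below 0.05, all lie above 0 and below a mean signal of 13, while the open circles crowd along 0 at the bright end.

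The signal itself set these probes apart from most of the array. Their median signal was 14.19, against 8.11 for all tested probes, and the median ribosomal protein probe lay at the 98.9th percentile of signal. Signal also depends on the probe, so the levels of different probes were not compared as amounts of mRNA. At a signal of 14 or above, 0 of 44 ribosomal protein probes passed the test, as did 6 of 141 other probes (4.26%). The 44 bright probes had log fold changes between -0.08 and 0.15, with a median of 0.00. Between 12 and 14, 1 of 15 ribosomal protein probes passed, against 22.8% of the others. Between 10 and 12, 5 of 10 passed, against 34.5% of the others. Between 8 and 10, 3 of 4 passed, against 35.9%, and below 8, 2 of 11 passed, against 30.9%. The 2 below 8 were probes of *Rps19* and *Rps27a* (5550431), and that of *Rps27a* met the detection rule through the miR-294 arrays. These bands of signal were chosen after the values were seen.

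Before normalization, the median signal intensity of the 44 bright probes was between 25926 and 30357 on the 6 arrays, where the brightest probe of an array had 36666 to 40919. Whether signals this close to the top of the scale still follow the amount of mRNA was not tested. The ribosomal protein probes held 7.36% to 7.84% of the summed signal of the tested probes, and the cel-239b arrays, which spanned 7.36% to 7.81%, overlapped the miR-294 arrays, which spanned 7.61% to 7.84%.

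Among the proteins of the small subunit, both probes of *Rps27a* were higher with miR-294. The gene encodes ubiquitin fused to the ribosomal protein S27a, and is thus also a source of ubiquitin. Its probe 5550431 measured 5.68, 5.60 and 5.77 on the cel-239b arrays and 6.55, 6.48 and 6.41 on the miR-294 arrays. All miR-294 arrays lay above all cel-239b arrays, and the fitted log fold change was 0.79. The probe was dim and was detected on 1 of the 3 cel-239b arrays and on all 3 miR-294 arrays, so that it entered the test through the group in which it was higher and its value is given as a description. It was 0.35 with an offset of 100 and 0.42 without background correction. The second *Rps27a* probe, 5290577, measured 12.56, 12.67 and 12.54 with cel-239b and 12.89, 12.83 and 12.84 with miR-294. Its groups did not overlap either, with a log fold change of 0.26 (SE 0.06, adjusted *p* = 0.0155). Without cel-239b replicate 3 its adjusted *p*-value was 0.0543, and without miR-294 replicate 1 it was 0.0506.

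*Rps19*, the gene most often mutated in Diamond-Blackfan anaemia, and *Rps24*, another gene of that disease, each had a probe that rose. The *Rps19* probe 3840465 measured 6.52, 6.38 and 6.13 with cel-239b and 6.89, 6.70 and 6.77 with miR-294. The groups were separate, with a log fold change of 0.44 (SE 0.10, adjusted *p* = 0.0172), and without miR-294 replicate 1 the adjusted *p*-value was 0.0558. This probe was dim too, and its log fold change was 0.23 with an offset of 100 and 0.27 without background correction. The *Rps24* probe 5490446 measured 9.89, 9.89 and 9.99 with cel-239b and 10.22, 10.21 and 10.27 with miR-294, with no overlap and a log fold change of 0.31 (SE 0.06, adjusted *p* = 0.00685). The brightest probes of both genes did not pass the test, with log fold changes of 0.03 for *Rps19* (6280541) and 0.01 for *Rps24* (2710477).

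Among the proteins of the large subunit, the largest increase was that of *Rpl31*. Its probe 6840035 measured 10.38, 10.33 and 10.44 with cel-239b and 10.83, 10.78 and 10.87 with miR-294. The groups lay well apart, with a log fold change of 0.44 (SE 0.06, adjusted *p* = 0.00174, *B*-statistic 1.62). Probe 3420189 of the same gene measured 10.98, 11.03 and 11.21 with cel-239b and 11.25, 11.20 and 11.28 with miR-294. Here the groups overlapped, and the log fold change was 0.17 (SE 0.07, adjusted *p* = 0.118). The probe passed in 2 of 18 settings. Its adjusted *p*-value from limma was 0.0417 without cel-239b replicate 3 and 0.0458 when the variance prior followed the signal. The brightest *Rpl31* probe, 4900348, measured 14.86, 14.86 and 14.94 with cel-239b and 14.80, 14.90 and 14.89 with miR-294, with a log fold change of -0.02 (SE 0.06, adjusted *p* = 0.794). The probes of this gene thus gave an increase, a smaller difference that did not pass in most settings, and a value close to 0.

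*Rpl38*, which is known for its part in the translation of *Hox* mRNAs in the embryo, measured 10.36, 10.41 and 10.27 with cel-239b and 10.63, 10.81 and 10.71 with miR-294 on probe 5260288. The groups did not overlap, and the log fold change was 0.37 (SE 0.07, adjusted *p* = 0.00721), whereas its brighter probe 2510707 had a log fold change of -0.03 (adjusted *p* = 0.747). *Rpl22*, whose protein also binds RNA outside the ribosome, measured 9.98, 9.98 and 9.85 with cel-239b and 10.30, 10.28 and 10.30 with miR-294 on probe 4640239. Its log fold change was 0.36 (SE 0.06, adjusted *p* = 0.00429), with no overlap between the groups.

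For *Rpl30* both tested probes rose. Probe 5290452 measured 8.43, 8.55 and 8.57 with cel-239b and 8.90, 8.88 and 8.80 with miR-294, which gave a log fold change of 0.34 (SE 0.06, adjusted *p* = 0.00631). Probe 7320608 measured 11.36, 11.37 and 11.33 with cel-239b and 11.58, 11.61 and 11.55 with miR-294, which gave a log fold change of 0.22 (SE 0.05, adjusted *p* = 0.0167). The groups were separate on both probes. The adjusted *p*-value of probe 7320608 was 0.0544 without cel-239b replicate 3, 0.0543 without miR-294 replicate 2 and 0.0551 with median scaling in place of quantile normalization.

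The other calls in the large subunit were those of *Rpl27a* and *Rpl7l1*. *Rpl27a* probe 3310360 measured 9.76, 9.77 and 9.88 with cel-239b and 10.03, 10.02 and 10.13 with miR-294, which gave a log fold change of 0.26 (SE 0.06, adjusted *p* = 0.0198). The 2 brighter probes of *Rpl27a* had log fold changes of -0.03 (7100707) and 0.04 (5360152) and did not pass. *Rpl7l1*, a relative of *Rpl7*, measured 7.92, 7.85 and 7.94 with cel-239b and 8.12, 8.19 and 8.14 with miR-294 on probe 110750, which gave a log fold change of 0.25 (SE 0.06, adjusted *p* = 0.0144). Its brighter probe 1660154 had a log fold change of 0.15 (adjusted *p* = 0.092). Neither call held with median scaling, where the adjusted *p*-values were 0.101 for *Rpl27a* and 0.139 for *Rpl7l1*. Without cel-239b replicate 2 they were 0.0651 and 0.0521, and that of *Rpl27a* was 0.0619 without miR-294 replicate 3.

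**Figure D2:**
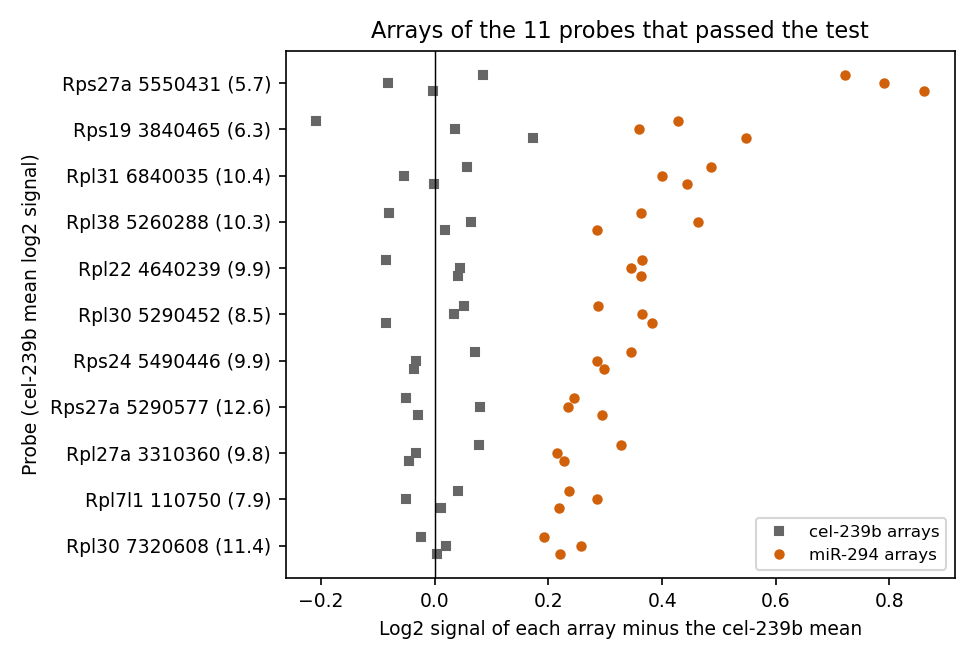
Each point is 1 array, and the horizontal axis gives its log2 signal minus the mean of the cel-239b arrays for that probe, with the cel-239b mean log2 signal in brackets beside the probe. On all 11 probes the 3 miR-294 arrays (orange) lie to the right of the 3 cel-239b arrays (grey).

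Counted without a threshold on the *p*-value, 17 ribosomal protein probes (20.2%) had all miR-294 arrays above all cel-239b arrays, against 24.3% of all tested probes. In the other direction, 5 probes (5.95%) had all miR-294 arrays below, against 23.6% of all tested probes. Probes of *Rpl13a*, *Rpl32*, *Rps21* and *Rps12* were among them, picked out after their values were seen, with log fold changes of -0.13, -0.06, -0.04 and -0.02. The *Rpl13a* probe 5340246, for a protein that is also a regulator of translation outside the ribosome, measured 12.42, 12.46 and 12.44 with cel-239b and 12.30, 12.32 and 12.31 with miR-294. Its adjusted *p*-value was 0.0939, and it was 0.0187 when the variance prior followed the signal.

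The paralogs and their parents gave log fold changes between -0.05 and 0.12 apart from those given above. *Rpl22l1*, the relative of *Rpl22*, measured 7.60, 7.52 and 7.70 with cel-239b and 7.27, 7.97 and 7.79 with miR-294, so that the miR-294 arrays spread to both sides of the control. Its log fold change was 0.06 (95% interval -0.33 to 0.46), and its difference from *Rpl22* was not tested. *Rpl39* had -0.05 and its relative *Rpl39l* had 0.06 (95% interval -0.38 to 0.50). *Rpl36a* had 0.12 and *Rpl36al* had 0.04, and *Rps27l*, known as a target of p53, had 0.08. *Rpl3* had -0.03, with a 95% interval from -0.15 to 0.10. The adjusted *p*-values of these 7 probes lay between 0.177 and 0.829.

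The stalk of the large subunit, where the elongation factors bind, is formed by Rplp0, Rplp1 and Rplp2. *Rplp1* measured 15.06, 15.04 and 15.00 with cel-239b and 15.03, 15.04 and 15.03 with miR-294, which gave a log fold change of 0.00, and *Rplp2* had 0.03 (adjusted *p* = 0.708). The array lists an older name of *Rplp0*, *Arbp*, which the name rule does not take and which was looked up afterwards through the RefSeq synonyms. Its probe 1340246 measured 9.33, 9.24 and 9.40 with cel-239b and 9.67, 9.56 and 9.62 with miR-294, and rose by a log fold change of 0.29 (SE 0.07, adjusted *p* = 0.0139 from limma). Its dim probe 5570093 had -0.29 (SE 0.16, adjusted *p* = 0.211), so that the 2 probes of that gene differed in sign. *Rps6*, the protein of the small subunit that S6 kinase phosphorylates, measured 13.97 ± 0.10 (SD, n = 3) under cel-239b and 14.07 ± 0.10 under miR-294, and the overlapping groups gave a log fold change of 0.10 (SE 0.08, adjusted *p* = 0.361). The tested probe of *Rpsa*, at the edge of detection, had 0.04 (95% interval -0.27 to 0.34).

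Where a gene had several tested probes, the dimmer probe often gave the larger value. This was the case for 11 of 16 ribosomal protein genes when the brightest and the dimmest tested probe were set side by side (68.8%), without *Rps27a*, whose dim probe entered through the miR-294 arrays. It was the case for 60.3% of 2950 genes in all, where no gene was left out for how its dim probe was detected. With *Rps27a* kept, it was the case for 12 of 17 ribosomal protein genes (70.6%). The difference between the log fold changes of the dimmest and the brightest probe was 0.47 (SE 0.08) for *Rpl31*, 0.41 (SE 0.11) for *Rps19*, 0.40 (SE 0.09) for *Rpl38* and 0.29 (SE 0.08) for *Rpl27a*. The bright probes of these genes are among those near the top of the scale, for which it was not tested whether the signal still follows the amount of mRNA. Fitted with limma across the 2950 genes, the differences had adjusted *p*-values of 0.0712, 0.143, 0.102 and 0.168. None of the 2950 genes passed after adjustment, while 450 genes (15.3%) had an unadjusted *p*-value below 0.05, these 4 of the 16 ribosomal protein genes among them. For *Rps24* the dimmest of the 3 tested probes did not pass, and the probe that rose was the middle one. This comparison was chosen after the values were seen, and whether the probes of a gene read different transcripts or copies was not tested.

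**Figure D3:**
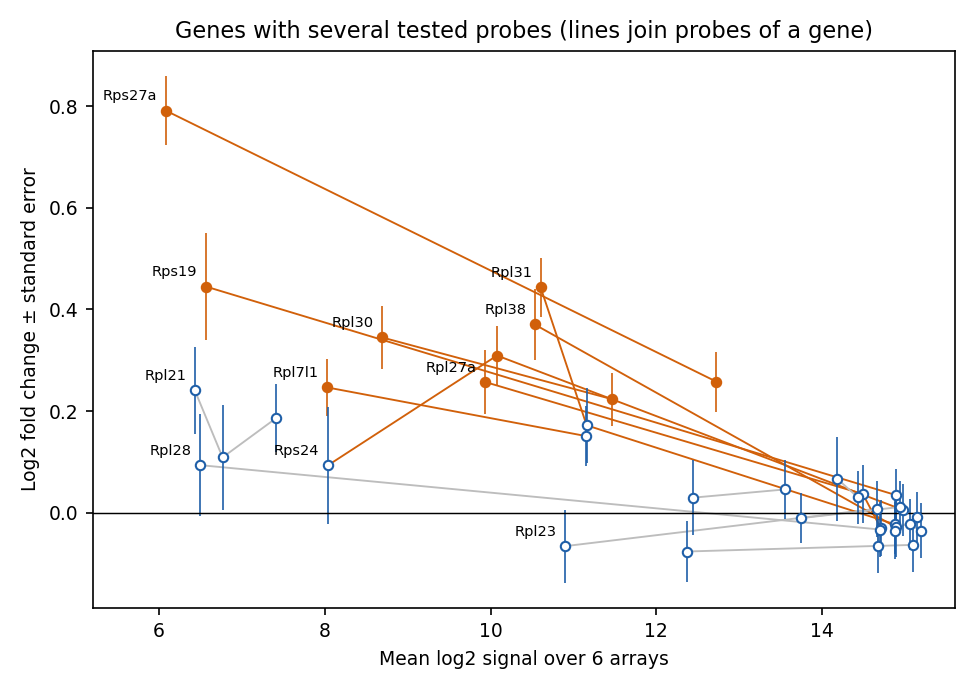
For the 17 ribosomal protein genes with several tested probes, the log2 fold change (vertical axis, with its standard error) is plotted against the mean log2 signal of the probe (horizontal axis), and a line joins the probes of a gene. Orange lines are genes with at least 1 probe that passed the test (filled points), and their bright probes near a signal of 15 lie close to 0.

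The sign of the typical ribosomal protein probe depended on how the arrays were scaled, while the sign of the 11 calls did not. With median scaling the median log fold change was 0.06 and 74 of the 84 probes were above 0, and 8 of them rose, as did 10.72% of all tested probes. With cyclic loess the median was -0.02 and 36 probes were above 0. Scaling on the median of all other tested probes, an alternative chosen after seeing the data, moved every probe by the same amount against median scaling. The median of the ribosomal protein probes was then 0.10 and that of all tested probes 0.04, and 16 of the 84 probes (19.05%) rose, as did 18.65% of all tested probes. The 11 probes kept a positive log fold change in every alternative in which they were tested. With 1 probe per gene, the brightest, 3 of 62 genes rose, those of *Rps27a*, *Rpl22* and *Rpl30*, against 16.83% of all genes that rose.

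**Figure D4:**
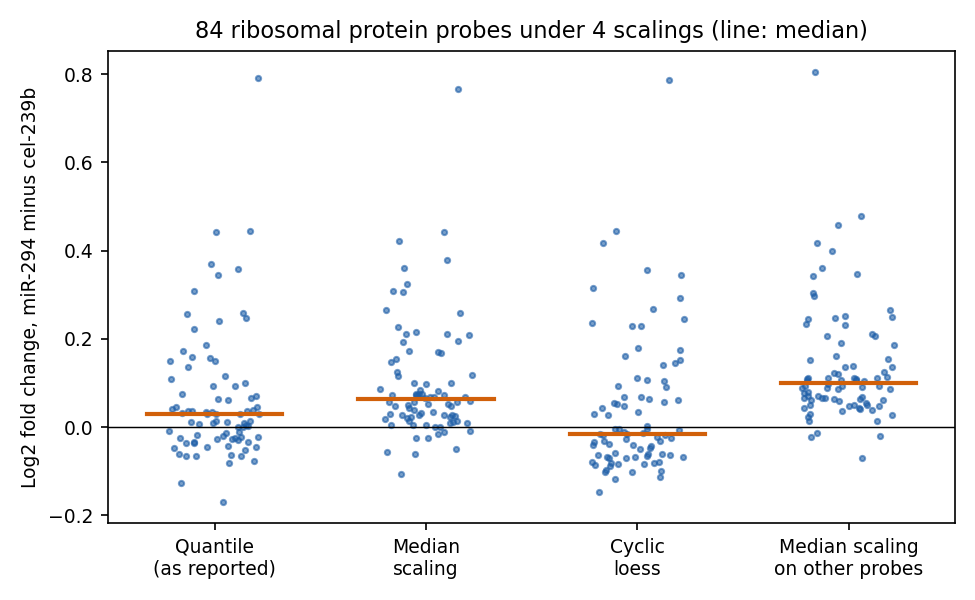
Each point is 1 of the 84 ribosomal protein probes, the vertical axis is the log2 fold change (miR-294 minus cel-239b) and the columns are 4 ways of scaling the arrays. The median (orange line) moves from -0.02 with cyclic loess to 0.10 with scaling on the other probes.

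The start of transcription of these genes was looked at for the pyrimidine tract. RefSeq promoter sequences of GRCm38.p6 were matched by symbol for 52 of the 68 genes, 7 of the 9 with an upregulated probe among them. The letters CTTTCC or CTTTTCC, of which neither contains the other, were searched on both strands within 50 bases either side of each start. On the strand of the transcript they were present in 23 of the 52 genes (44.2%), against 6.31% of 17492 protein-coding genes and 6.76% of all 27025 genes of the table. On the other strand they were present in 5.77% of the ribosomal protein genes and 6.54% of all genes. Among mitochondrial ribosomal protein genes, whose proteins act in another ribosome, 8.7% held them on the strand of the transcript. Of the ribosomal protein genes with an upregulated probe 6 of 7 held the letters on the strand of the transcript, and of the others 17 of 45 did. On the other strand 2 of the 7 and 1 of the 45 held them, and neither difference was tested. The letters were chosen after the changes in expression were known, and a match is a description and not a site.

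The following stretches are shown because they hold the letters searched near the start of genes whose values are given above, 4 genes with an upregulated probe and *Rpl13a*. Each runs from 50 bases before the start to 25 bases after it in the direction of the transcript, and the capitals mark the letters searched where they lie on that strand. They lie at chr11:114668530-114668604 (*Rpl38*, plus strand), chr7:109519145-109519219 (*Rpl27a*, plus), chr4:152325676-152325750 (*Rpl22*, plus), chr14:24490703-24490777 (*Rps24*, plus) and chr7:45128721-45128795 (*Rpl13a*, minus).
Rpl38: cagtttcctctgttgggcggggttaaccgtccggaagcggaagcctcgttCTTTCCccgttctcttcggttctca
Rpl27a: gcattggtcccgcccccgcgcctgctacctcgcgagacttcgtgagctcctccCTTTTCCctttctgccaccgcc
Rpl22: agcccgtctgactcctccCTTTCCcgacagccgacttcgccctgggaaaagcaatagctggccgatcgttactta
Rps24: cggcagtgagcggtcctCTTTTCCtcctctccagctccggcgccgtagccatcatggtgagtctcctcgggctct
Rpl13a: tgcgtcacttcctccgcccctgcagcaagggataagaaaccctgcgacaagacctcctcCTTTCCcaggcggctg
In *Rpl38* the letters begin at the first transcribed base, in *Rpl27a* at base 4 and in *Rpl13a* at base 10. In *Rpl22* and *Rps24* they lie upstream of the start that RefSeq gives, at bases -32 and -33, and thus outside the transcript that starts there.

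Genes that act on ribosomes were set beside the proteins of the ribosome. Of 74 tested probes for 50 ribosome biogenesis factors, which process ribosomal RNA and assemble the subunits in the nucleolus, 34 probes for 25 genes rose and 0 fell (45.9% passed, against 32.3% of all tested probes), with a median log fold change of 0.22. *Pwp2*, a part of the complex that begins to make the small subunit, rose by 1.10 (probe 2260435) and 0.64 (probe 1470292), *Gnl3* (nucleostemin) by 0.74 (probe 7550554), 0.24 and 0.21, and *Nol1*, an rRNA methyltransferase, by 0.66 (probe 3830400), 0.32 and 0.28, so that the probes of a gene differed in size. Of 17 probes for the RNA polymerase I machinery, which transcribes ribosomal RNA, 2 rose, *Rpo1-2* by 0.49 and *Rpo1-4* by 0.48 (probe 6650239), and the median was 0.17. Of 9 probes for chaperones of ribosomal proteins 4 rose, for *Grwd1* (0.29 and 0.24), *Pdcd2l* (0.21) and *Heatr3* (0.20), with a median of 0.15. Of 14 probes for regulators of TOP mRNA translation 1 rose and 1 fell, both of *Tia1* (0.22 on probe 3060544 and -0.41 on probe 7100446), and *Larp1*, which binds the tract, had 0.01.

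Mitochondrial ribosomal proteins, which share the function but not the ribosome, had 25 of 108 tested probes that rose and 4 that fell, with a median of 0.08. In all 26.9% of them passed, against 32.3% of all tested probes. The largest increases were those of *Mrpl49* (0.49), *Mrps31* (0.47) and *Mrps25* (0.42), and the largest decreases those of *Mrpl38* (-0.54), *Mrpl52* (-0.38) and *Mrps5* (-0.35). The median signals of these lists differed from that of the ribosomal protein probes, at 10.33 for the biogenesis factors and 10.13 for the mitochondrial proteins against 14.19, and the part of signal in the difference between the lists was not tested. *Gnb2l1*, which encodes a protein of the small subunit but whose name falls outside the rule, had a log fold change of 0.01.

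**Figure D5:**
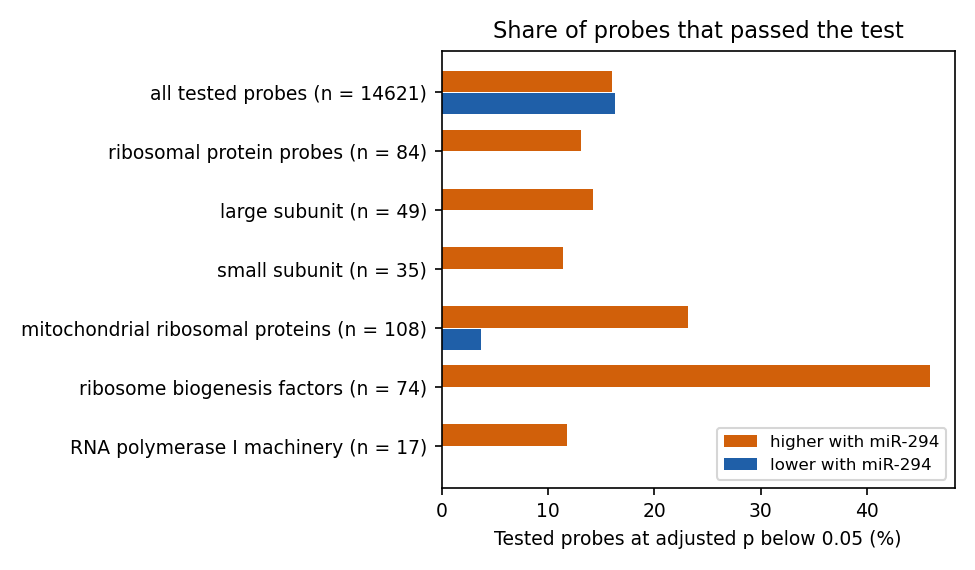
Bars give the percentage of tested probes with an adjusted p below 0.05 that were higher (orange) or lower (blue) with miR-294, for all tested probes, the ribosomal protein probes, each subunit and 3 related lists, with the number of probes in brackets. No blue bar is drawn for the cytosolic ribosomal proteins, the biogenesis factors and the RNA polymerase I machinery, because 0 of their probes fell.

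The cells carried markers of ES cells, with all 8 listed genes detected. Of their 12 tested probes 4 rose (*Nanog* on 2 probes, *Esrrb* and *Zfp42*) and 1 fell (*Tdgf1*), against 16% and 16.3% of all tested probes. Of 8 fibroblast markers 1 was tested, *Thy1*, which met the detection rule through the 3 miR-294 arrays and was detected on no control array, and collagen genes were not detected. Of 6 markers of primitive endoderm 2 were tested, *Dab2*, which also met the rule through the miR-294 arrays alone, and *Sox7*, for which both tested probes rose, while *Gata4*, *Gata6*, *Sox17* and *Foxa2* were not detected. Summed over all probes of the list on the linear scale, fibroblast markers measured 146 to 154 with cel-239b and 196 to 217 with miR-294, primitive endoderm markers 336 to 357 and 531 to 551, and ES cell markers 116353 to 119039 and 122177 to 125633. Without the probes detected on miR-294 arrays alone, fibroblast markers measured 93.1 to 101.8 and 97.6 to 101.6, and primitive endoderm markers 297 to 310.2 and 428 to 453. The part of these markers in the values of the ribosomal protein genes was not tested.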

How the data were processed

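RNA of 3 miR-294 and 3 cel-239b transfections was profiled on Illumina MouseWG-6 v2.0 arrays, with groups taken from the sample labels. The authors deposited, per probe and array, the signal intensity averaged over beads, exported with GenomeStudio 1.0.6 and not normalised, together with its bead standard deviation as an intensity, bead counts, and a detection score deposited as a fraction from 0 to 1. Whether the software had subtracted background is not stated in the sources used here, and signals were treated as not subtracted because none was negative. A further 24 columns were not used. In R 4.3.3 with limma 3.58.1, background was corrected with normexp from detection *p*-values (1 minus the score), and an offset of 16 was added. Signals were then quantile normalised on the linear scale and put on the log2 scale. Those probes that had a score above 0.99 on at least 3 arrays were fitted with lmFit and eBayes (prior share 0.01) and adjusted by Benjamini-Hochberg. The steps were tested on simulated data. Spread was measured between triplicate transfections, and replicates of a group correlated at 0.995 to 0.997, against 0.983 to 0.988 between groups.

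Probes named were those with a *B*-statistic above 5, the 8 largest increases and decreases past the test with groups that did not overlap, paralogs with their parents, *Rplp0*, *Rplp1*, *Rplp2*, *Rpsa*, *Rps6*, *Rpl5*, *Rpl11*, *Rpl31* and probes at the edge of the detection rule. In other lists the 3 largest changes in each direction were named. Values of the remaining called probes, *Rpl13a* and further probes of called genes were added after they were seen. The members and lists were chosen with earlier results of these data known. The alternatives were the background correction, normalization, offset, detection filter, replicate block, array weights, variance prior, each array left out and 1 probe per gene. *Rps3a* was the only member name that is not a current RefSeq symbol. Some items are not reported here.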

Additional observations from a re-analysis of the deposited data

How the results depend on the processing

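The count of 11 upregulated probes was between 8 and 16 under the other settings, except with 1 probe per gene, where it was 3, and between 9 and 11 with each array left out. Of all tested probes, 16.02% rose with the settings used above. That share was 4.12% without a detection filter, 18.65% with scaling on the other probes and 16.83% with 1 probe per gene. With each array left out it was 10.14% to 16.95%. The count of downregulated probes was 0, except 1 without a detection filter (*Rpl37*, probe 5390112, whose signal was not detected on any array) and 1 with an intensity-trended prior (*Rpl13a*). A *B*-statistic above 5 was reached by 1 probe that was higher with median scaling and by 1 with the intensity-trended prior.

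The median log fold change of 0.0295 depended on single arrays as well as on the processing. It was 0.0629 with median scaling, -0.0156 with cyclic loess, 0.0235 with an offset of 100, 0.0220 where detection on 1 array sufficed, 0.0146 where all 6 were required, 0.0120 without a filter, 0.0191 with array weights, 0.0107 with 1 probe per gene and 0.1007 with scaling on the other probes, and between 0.0063 and 0.0225 with each array left out. Of the 84 probes, 54 were above 0, and 74 with median scaling, 36 with cyclic loess and 80 with scaling on the other probes. Without miR-294 replicate 2, 43 of 83 were above 0. Of the 25 probes followed one by one through the settings in which they were tested, none of the 11 calls changed sign, and those that did were *Rpl3* (0.0262), *Rpl31* probe 4900348 (0.0230) and *Rpl39* (0.0051) with median scaling, the same probes (0.0639, 0.0607 and 0.0428) with scaling on the other probes, and *Rpl36al* (-0.0043), *Rplp1* (-0.0605) and *Rplp2* (-0.0347) with cyclic loess. With each array left out, the range was -0.0829 to 0.2688 for *Rpl22l1*, -0.0415 to 0.0082 for *Rpl31* probe 4900348, -0.1633 to 0.2549 for *Rpl39l*, -0.0142 to 0.0124 for *Rplp1*, -0.0007 to 0.0665 for *Rplp2* and -0.0122 to 0.1773 for *Rpsa*, which was tested only without cel-239b replicates 2 and 3 and without miR-294 replicate 3. The cause was not tested. With the replicate number as a block, 11 probes rose, 0 fell and the median was 0.0295, where 14.44% of all tested probes rose and 14.77% fell. Deviations of arrays with the same number correlated at 0.14, -0.08 and 0.14, and whether arrays with the same number were handled together was not tested. Precision is limited by 3 arrays per group and, for dim probes, by signals close to background.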
